A study of Mus musculus with 4 samples.

Results

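Mast cell proteases are enzymes that mast cells store in their granules and release when they are triggered. The 5 genes described here were the mouse chymase genes Cma1 and Mcpt4, the tryptase genes Tpsb2 and Tpsab1, and Cpa3, which encodes mast cell carboxypeptidase A. They were chosen by their measured levels, after Cma1, Cpa3 and Tpsb2 had been seen to be high in a few OGT KO cells of these data, so their levels and the contrasts between the libraries are given as a description, with no test. They are 5 of the 27998 gene identifiers in the deposited tables. Of the 5 genes, 3 had at least 1 UMI (unique molecular identifier, the tag that marks 1 captured transcript), while Mcpt4 and Tpsab1 had none in any deposited barcode.

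Single cells of the embryonic mouse pancreas at embryonic day 15.5 were profiled on the 10x Genomics platform in 2 libraries. The OGT KO library came from PdxCre;OGTflox/flox;CAG GFP animals, in which Pdx-driven Cre deletes floxed Ogt in pancreatic epithelium, and its cells were sorted on their own GFP. The Control library came from OGTflox/flox animals, which carry the same floxed alleles, are labelled WT, and were sorted on E-cadherin. Ogt encodes the enzyme that attaches O-GlcNAc to proteins inside cells. Each genotype was sequenced in 2 technical runs that were pooled into 1 table, so each genotype is 1 library. Genotype and sort therefore cannot be told apart, no difference below has a replicate check, and the 95% intervals cover counting error only. How many embryos were pooled is not given in the sources used here. Blood-derived cells are not a known target of a Pdx-driven Cre.

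After filtering, the OGT KO library held 553 cells with a median of 16168 UMIs, and the Control library held 921 cells with a median of 10867 UMIs. Although both libraries are labelled as epithelial cells, clusters with a high level of the leukocyte gene Ptprc held 80 OGT KO cells (14.5%, exact binomial interval 11.6 to 17.7) and 808 Control cells (87.7%, 85.4 to 89.8). Ogt itself measured 56.5 CPM (UMIs scaled to a common total) in OGT KO cells and 61.8 CPM in Control cells. Within the cluster that carries the proteases, Ogt had 11 UMIs in 13 OGT KO cells (58.9 CPM) and 2 UMIs in 2 Control cells (70.9 CPM). No cell barcode was shared between the libraries.

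Mast cells arise from blood progenitors that seed tissues during development, mature there under signals through the receptor Kit, and fill their granules with proteases bound to heparin and other chains on serglycin. Chymases cut after aromatic residues, tryptases cut after lysine or arginine, and carboxypeptidase A trims residues from the C-terminal end of peptides. In the mouse, Cpa3 is also transcribed by basophils and by early progenitors of both lineages, while the chymase and tryptase genes are held to be more typical of mast cells of connective tissue. The transcription factors Gata2 and Mitf are known regulators of mast cell genes.

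The 5 genes lie at 3 places in the mouse genome (GENCODE M21 annotation, GRCm38). Cma1 lies on the minus strand of chromosome 14 at 55941451 to 55944675, and Mcpt4 lies on the same strand of that chromosome at 56059629 to 56062313. Tpsab1 lies on the minus strand of chromosome 17 at 25343245 to 25345562, and Tpsb2 lies on the plus strand at 25366305 to 25369098. Cpa3 stands alone, on the minus strand of chromosome 3 at 20215620 to 20242181.

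Promoter sequences are shown for the genes that RefSeq's table holds, because Cma1 and Cpa3 were high in the same cells and Mcpt4, a chymase gene near Cma1, had no UMI in them. Each window runs from 250 bases before to 50 bases after the transcription start (GRCm38.p6), 5′ to 3′ on the gene's own strand, and capitals mark a GATA match. The windows are chr14:55944626-55944925 for Cma1, chr3:20242132-20242431 for Cpa3 and chr14:56062261-56062560 for Mcpt4, each on the minus strand.
Cma1 promoter: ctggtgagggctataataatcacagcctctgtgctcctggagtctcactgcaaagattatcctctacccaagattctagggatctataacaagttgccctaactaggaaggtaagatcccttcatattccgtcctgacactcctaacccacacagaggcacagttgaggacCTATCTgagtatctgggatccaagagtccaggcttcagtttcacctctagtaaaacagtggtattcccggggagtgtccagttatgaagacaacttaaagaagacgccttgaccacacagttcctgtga
Cpa3 promoter: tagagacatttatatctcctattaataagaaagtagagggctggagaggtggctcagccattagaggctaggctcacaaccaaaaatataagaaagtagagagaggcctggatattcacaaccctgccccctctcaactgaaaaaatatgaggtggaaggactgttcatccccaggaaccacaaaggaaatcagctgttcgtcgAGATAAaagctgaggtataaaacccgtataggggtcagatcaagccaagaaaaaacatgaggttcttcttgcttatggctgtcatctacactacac
Mcpt4 promoter: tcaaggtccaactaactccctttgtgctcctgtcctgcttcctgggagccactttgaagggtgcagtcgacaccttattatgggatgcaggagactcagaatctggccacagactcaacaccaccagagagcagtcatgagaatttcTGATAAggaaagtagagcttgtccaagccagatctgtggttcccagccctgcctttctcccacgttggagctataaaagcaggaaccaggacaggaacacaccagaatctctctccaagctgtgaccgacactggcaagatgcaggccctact

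A GATA match was counted where a window held AGATAA on either strand, and likewise for the variant TGATAA, for the variant AGATAG and for the variant TGATAG. Cma1 held 1 match, on the opposite strand, 79 bases before its start. Cpa3 held 1 match 46 bases before its start. Mcpt4 held 1 match 103 bases before its start, so a match was present in the promoter without a UMI as well as in the promoters with many. Among all 32817 promoter windows of the same length, 29.8% held at least 1 such match. CATGTG, a word bound by Mitf and related factors, was found in none of the 3 windows and in 14.2% of all windows. These matches describe the letters only.

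Cma1, Cpa3 and Tpsb2 were all far higher in the OGT KO library than in the Control library when all kept cells were summed. Cma1 had 1167 UMIs in OGT KO cells (113 CPM, exact Poisson interval 106 to 119) and 1 UMI in Control cells (0.0847 CPM). The ratio was 1331, with an exact conditional interval of 238 to 52605 that is wide because a single Control UMI sets it. Cpa3 had 1132 UMIs in OGT KO cells (109 CPM, 103 to 116) and 58 UMIs in Control cells (4.91 CPM, 3.73 to 6.35), a ratio of 22.3 (17.1 to 29.5). Without the OGT KO cell that held the most member UMIs, the Cpa3 ratio was 15.1. Tpsb2 had 304 UMIs in OGT KO cells (29.4 CPM, 26.1 to 32.8) and 0 UMIs in Control cells. Placing 3 counts in the Control library as a floor, Tpsb2 was at least 116-fold higher in the OGT KO library.

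Summed over the 5 genes, the level was 251 CPM in OGT KO cells (242 to 261) and 4.996 CPM in Control cells (3.80 to 6.44), a ratio of 50.3 (38.9 to 66.3).

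Most member UMIs of the OGT KO library lay in very few cells. In that library, the 5 cells with the most Cma1 held 78.5% of its UMIs, and the equivalent share was 73.7% for Cpa3 and 74.7% for Tpsb2. Removing the 5 OGT KO cells with at least 200 member UMIs lowered the summed ratio over all kept cells to 12.5. Leaving out the whole cluster that holds them, Control cells included, gave a ratio of 118 (50.1 to 364) between levels of 49.95 CPM in OGT KO cells and 0.424 CPM in Control cells. Those 5 cells were set apart after their values had been seen. Of all member UMIs of the OGT KO library, 80.5% lay in 1 cluster, whose leading gene was Cpa3 and which held 13 OGT KO cells (2.35% of kept cells, 1.26 to 3.99) and 2 Control cells (0.217%, 0.0263 to 0.782).

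**Figure D1:**
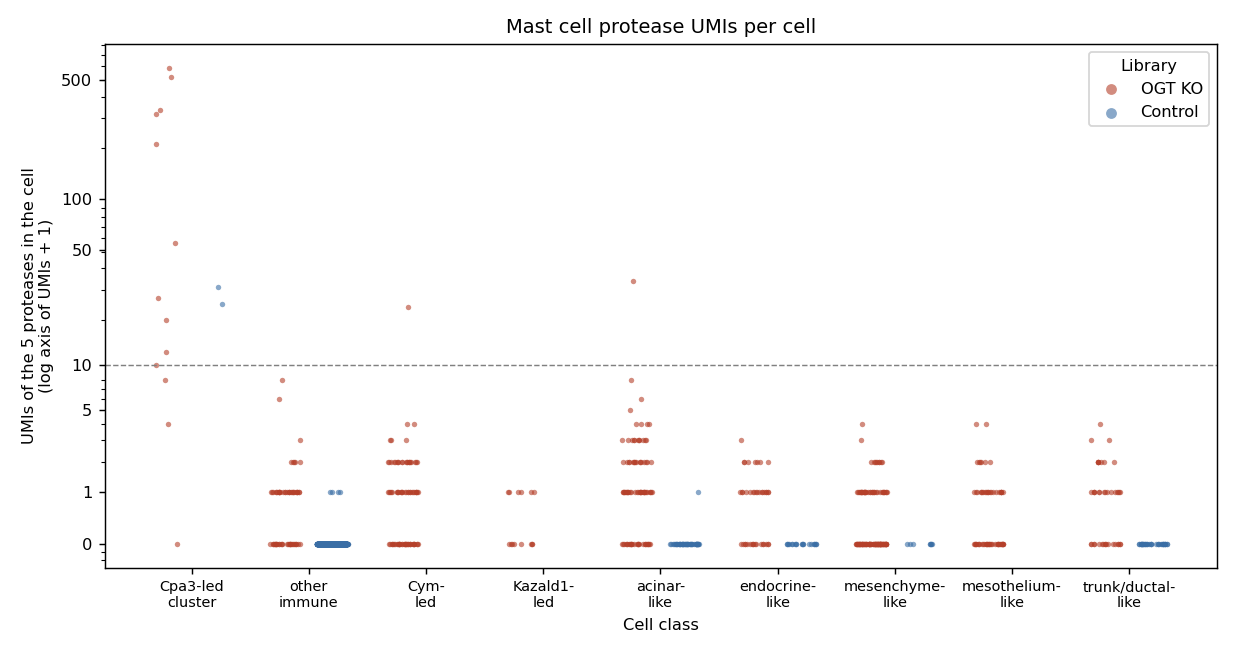
UMIs of the 5 proteases in every kept cell, on a log axis of UMIs + 1, by cell class and library (OGT KO left, Control right within a class). The dashed line marks the 10 UMIs used to call a cell protease-high, and 5 OGT KO cells of the Cpa3-led cluster stand above 200 UMIs, against 30 and 24 UMIs in the 2 Control cells of that cluster.

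The 5 OGT KO cells at the top each carried Cma1, Cpa3 and Tpsb2 together. Cell 1 had 215 UMIs of Cma1, 369 of Cpa3 and 3 of Tpsb2 among 32776 UMIs in all. Cell 2 had 299 UMIs of Cma1, 135 of Cpa3 and 85 of Tpsb2 among 22698. Cell 3 had 168 UMIs of Cma1, 100 of Cpa3 and 63 of Tpsb2 among 14321. The balance between the tryptase and the other 2 enzymes thus differed from cell to cell. Cell 4 had 152 UMIs of Cma1, 153 of Cpa3 and 9 of Tpsb2 among 30076. Cell 5 had 82 UMIs of Cma1, 77 of Cpa3 and 51 of Tpsb2 among 9507. Tpsb2 was low in cells 1 and 4, the deepest of the 5, and high in cells 2, 3 and 5.

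The 3 genes together made up 1.79%, 2.29%, 2.31%, 1.04% and 2.21% of all UMIs in cells 1 to 5. The remaining 8 OGT KO cells of the cluster held between 0 and 55 member UMIs, and Cpa3 made up most of them. Cell 6 had 46 UMIs of Cpa3 and 9 of Cma1, and cell 7 had 20 of Cpa3 and 6 of Cma1, both with 0 of Tpsb2. Cells 8 to 12 had between 3 and 19 UMIs of Cpa3, at most 1 of Cma1 and at most 1 of Tpsb2. Cell 13 had 0 member UMIs, although it lay in the same cluster.

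Control cell 1 of the cluster had 29 UMIs of Cpa3, 1 of Cma1 and 0 of Tpsb2, and Control cell 2 had 24 of Cpa3 and 0 of both others. Each therefore looked like the lower OGT KO cells, with Cpa3 and almost no chymase or tryptase. Of the member UMIs in the 5 top OGT KO cells, 46.7% were Cma1 (exact binomial interval 44.5 to 49.0), 42.5% were Cpa3 (40.3 to 44.8) and 10.8% were Tpsb2 (9.42 to 12.2). In the other 8 OGT KO cells, 12.7% were Cma1 (7.57 to 19.53), 85.8% were Cpa3 (78.8 to 91.2) and 1.49% were Tpsb2 (0.181 to 5.29). In the 2 Control cells, 98.1% were Cpa3 (90.1 to 99.95). These are shares of UMIs, not divided by transcript length.

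Summed over the Cpa3-led cluster, Cpa3 reached 5079 CPM in OGT KO cells and 1878 CPM in Control cells, a ratio of 2.70 (2.05 to 3.64). Cma1 reached 4993 CPM in OGT KO cells and 35.4 CPM in Control cells from 1 UMI. Tpsb2 reached 1140 CPM in OGT KO cells and had 0 UMIs in Control cells, at least 10.7-fold higher with 3 counts as the floor. Only 2 Control cells stood behind these values. All 3 members with UMIs were at least 2-fold higher in OGT KO cells of immune clusters, a direction that 15.4% of the 12298 genes measured there shared. This contrast was known when the genes were chosen, and nothing is read from the count. Across all cells of immune clusters the summed ratio was 273 (211 to 361), and it was 26.3 without the 5 top cells.

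The label of these genes as mast cell proteases was checked against 13 further mast cell markers and against basophil markers in each cell. Cluster and markers did not give 1 name: of the 10 genes that led the cluster, 5 were on the mast cell list and 4 on the basophil list. The 5 were the members Cpa3, Cma1 and Tpsb2, with Hdc and Gata2, which stand on both lists. No gene of the mast cell list alone, beyond the members, was among the 10, whereas Mcpt8 and Prss34 are on the basophil list alone. The members were chosen as high, so the count of 5 is no check of the label. The cluster is therefore called by its leading gene. It contained cells of unlike make-up.

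Kit, the receptor for stem cell factor, had 6, 10, 2, 11 and 0 UMIs in OGT KO cells 1 to 5 and 6 and 4 UMIs in cells 6 and 7. In cells 8 to 13 it had 0 or 1 UMI, and in both Control cells it had 0. Tpsg1, which encodes a membrane-bound tryptase, had 15, 16, 8, 14 and 7 UMIs in cells 1 to 5, and 0 in the 8 other OGT KO cells and in both Control cells. The 5 cells with Tpsg1 were thus the 5 cells with the most Cma1.

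Mcpt8, a granule protease typical of mouse basophils, showed the opposite distribution. It had 0 UMIs in cells 1 to 6, 1 UMI in cell 7, and 2, 5, 50, 18, 4 and 22 UMIs in cells 8 to 13. The 2 Control cells had 15 and 21 UMIs of Mcpt8. Cd200r3, a receptor found on basophils and mast cells of the mouse, had 2 UMIs in cell 1, 0 in cells 2 to 7, and 5, 12, 3, 1, 4 and 9 UMIs in cells 8 to 13, against 14 and 9 UMIs in the Control cells. Both genes were thus lower in cells 1 to 6 than in the 2 Control cells. Il3ra, also on the basophil list, did overlap, with between 0 and 2 UMIs in cells 1 to 6 and 0 and 3 UMIs in the Control cells. How many of all genes are so separated was not computed, and nothing is read from the separation.

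Hdc and Gata2, which stand on both lists, were found on both sides of this division, Gata2 in every cell of the cluster and Hdc in every cell but cell 10. Hdc, which makes histamine, had between 12 and 52 UMIs in cells 1 to 5, between 0 and 16 in cells 6 to 13, and 7 and 8 UMIs in the Control cells. Gata2 had between 3 and 32 UMIs in cells 1 to 5, between 2 and 18 in cells 6 to 13, and 17 and 14 UMIs in the Control cells. Prss34 encodes a tryptase-like protease that mouse basophils also make. It had 13, 43 and 3 UMIs in cells 2, 4 and 5, and 0 in cells 1 and 3. In cells 6 to 13 it had 0, 0, 2, 0, 15, 1, 3 and 0 UMIs, against 20 and 27 UMIs in the Control cells. Unlike Mcpt8, Prss34 thus occurred beside high Cma1.

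Some other genes of the mast cell list were at or near 0. As a floor, 3 counts correspond to 16.1 CPM over the 13 OGT KO cells and 106 CPM over the 2 Control cells. Mrgprb1 and Mrgprb2, receptors of mouse mast cells, had 0 UMIs in all 15 cells. Fcer1a, the IgE-binding chain of the high-affinity receptor, had 1 UMI in cell 10 and 0 in the others. Ms4a2, the beta chain of that receptor, was detected at low counts. It had 5 UMIs over cells 1 to 5, 6 over the other 8 OGT KO cells and 4 over the Control cells. Fcer1a and Ms4a2 stand on the basophil list as well. In the same order, Il1rl1 had 20, 17 and 3 UMIs, Rab27b 14, 3 and 0 and Mitf 7, 1 and 0. Slc18a2 had 9, 4 and 2 UMIs, and Hpgds had 2, 1 and 0. Cyp11a1 was lower in cells 1 to 5 (192 CPM) than in the other 8 OGT KO cells (568 CPM) and the Control cells (319 CPM).

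**Figure D2:**
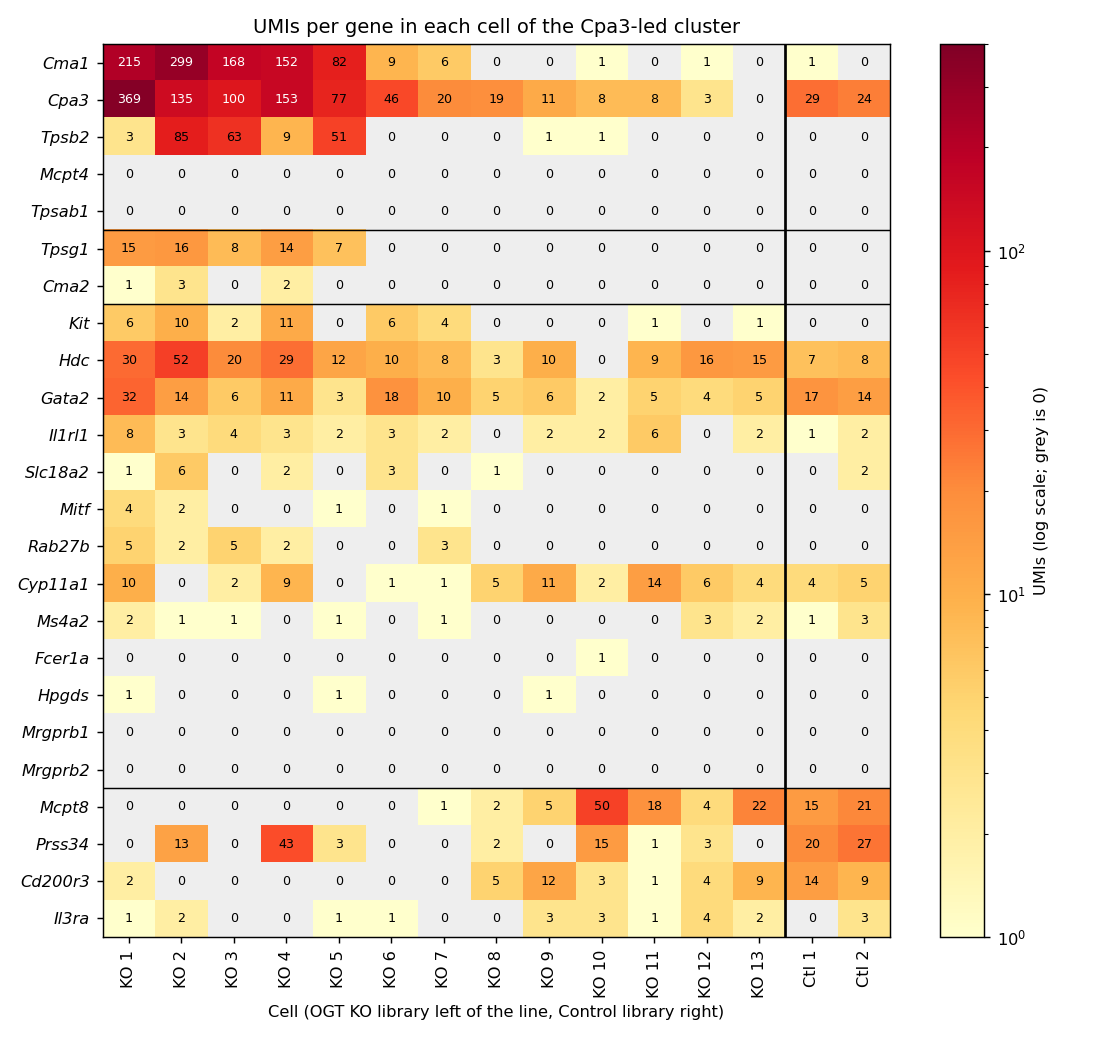
UMIs of the 5 proteases, 2 neighbouring protease genes, mast cell markers and basophil markers in each cell of the Cpa3-led cluster, with OGT KO cells left of the vertical line and Control cells right of it (log colour scale, grey for 0). Cma1, Tpsb2 and Tpsg1 fill cells 1 to 5, whereas Mcpt8 and Cd200r3 fill cells 8 to 13 and both Control cells.

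**Figure D3:**
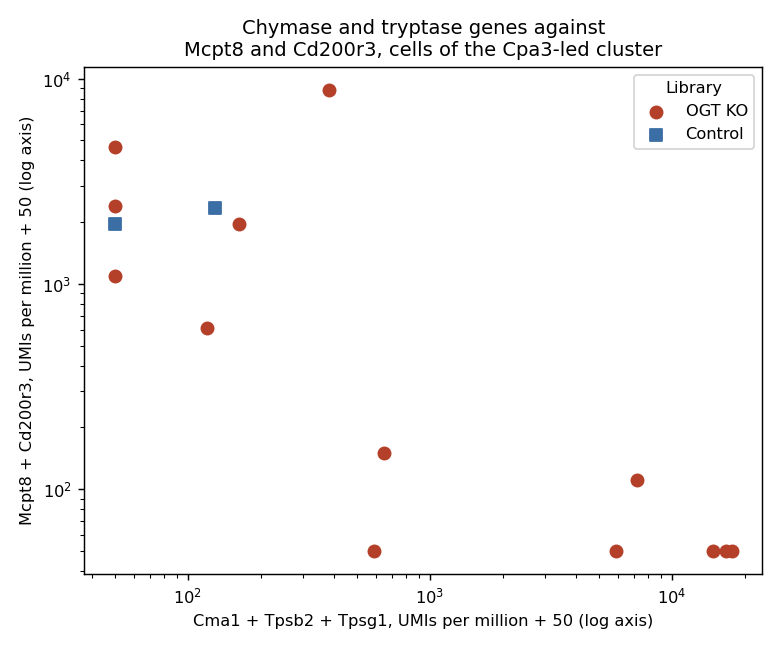
Level of Cma1, Tpsb2 and Tpsg1 together against Mcpt8 and Cd200r3 together in each cell of the Cpa3-led cluster, both in CPM with 50 added (log axes). Circles are OGT KO cells and squares are Control cells, and no cell is high on both axes. That holds for these genes only. Prss34, also on the basophil list but not on the axes, had 13 UMIs in cell 2 and 43 in cell 4, where Cma1 was high.

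Mcpt4 and Tpsab1 were at 0 in every deposited barcode of both libraries. For the whole library, 3 counts would correspond to 0.290 CPM in OGT KO cells and 0.254 CPM in Control cells. Within the 5 top cells, which held 109378 UMIs, the same floor was 27.4 CPM, against 8375 CPM of Cma1 and 1929 CPM of Tpsb2. At 27.4 CPM, 3 UMIs would be expected over those cells, so 0 UMIs could still occur near that level. The floor applies only if reads of Mcpt4 and Tpsab1 were counted. The longest exact run shared by transcripts of Tpsb2 and Tpsab1 was 39 bases, and it was 27 bases for Cma1 and Mcpt4. In the last 400 bases the longest shared runs were 23 bases for Tpsb2 and Tpsab1 and 11 bases for Cma1 and Mcpt4. Mcpt4 and its neighbour Mcpt9, also at 0, shared a run of 56 bases, and of 37 bases within the last 400. Whether reads of these genes were lost in counting was not tested.

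Expression at each locus was uneven between neighbours. On chromosome 14, Cma1, Mcpt4 and 8 further listed protease genes lie within 320.8 kb. Cma2, the gene nearest to Cma1 in that list, had 6 UMIs in OGT KO cells, all in the Cpa3-led cluster, and 0 in Control cells. Mcpt1, Mcpt9, Mcpt2 and Gzmc had 0 UMIs in both libraries, as Mcpt4 did. Mcpt8, beyond Mcpt4, had 119 UMIs in OGT KO cells and 50 in Control cells. Ctsg, a neutrophil and mast cell protease gene, had 10 UMIs in OGT KO cells, 0 of them in the Cpa3-led cluster, and 4 in Control cells, 3 of them in that cluster. Gzmb, which encodes granzyme B, had 26 UMIs in OGT KO cells, 19 of them in the Cpa3-led cluster, and 0 in Control cells.

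On chromosome 17, Tpsb2 and Tpsab1 lie with Prss34 and Tpsg1 in 76.1 kb. Tpsg1 follows Tpsb2 on the same strand, with 174 bases between them, and had 67 UMIs in OGT KO cells and 0 in Control cells. Prss34 had 101 UMIs in OGT KO cells and 51 in Control cells. Of these 4 neighbours, Tpsab1 was the one at 0.

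Outside the Cpa3-led cluster, member UMIs were spread thinly over the OGT KO library. Over the 540 OGT KO cells of other clusters there were 508 member UMIs (49.95 CPM, 45.7 to 54.5), whereas the 919 Control cells of other clusters held 5 (0.424 CPM). At least 1 member UMI was found in 300 of 553 OGT KO cells, 182 of them with exactly 1, and in 7 of 921 Control cells. Free RNA in the cell suspension gives UMIs in cells that do not express a gene, and acinar cells, which make digestive enzymes, are not known to express these genes.

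The level hardly varied between cell classes once protease-high cells (at least 10 member UMIs from at least 2 genes) were set aside. It was 49.1 CPM in the other OGT KO immune cells (37.1 to 63.8), 44.7 CPM in acinar-like cells (37.4 to 53.1) and 46.3 CPM in trunk/ductal-like cells (32.9 to 63.2). It was 47.8 CPM in endocrine-like cells (33.1 to 66.8), 38.6 CPM in mesenchyme-like cells (29.4 to 49.7) and 40.4 CPM in mesothelium-like cells (29.1 to 54.6). It was 47.7 CPM in a cluster led by Cym (38.1 to 59.1) and 36.1 CPM in one led by Kazald1 (13.3 to 78.6). The 8 intervals overlapped, which does not show that the classes were equal. Set in order, the Cpa3-led cluster stood first at 11212 CPM with all its cells counted. Below it, the intervals of each neighbouring pair overlapped.

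In Control cells the corresponding level was 0.411 CPM in other immune cells (0.112 to 1.05) and 0.773 CPM in acinar-like cells, from 4 UMIs and 1 UMI. After each cell was thinned to 5000 UMIs, 34.8% of other OGT KO immune cells had a member UMI (23.5 to 47.6), against 0.136% of other Control immune cells. Among acinar-like OGT KO cells the thinned share was 22.6% (14.5 to 32.4). Without thinning, the shares were 55.2% of other immune OGT KO cells at a median of 16368 UMIs and 71.0% of acinar-like OGT KO cells at a median of 31391 UMIs. The intervals of other immune and acinar-like OGT KO cells overlapped for the level and for the thinned share. Such overlap does not show that the classes were equal. In mesenchyme-like OGT KO cells the thinned share was 13.3% (7.93 to 20.4), an interval below that of other immune OGT KO cells. For every other OGT KO class outside the Cpa3-led cluster, the thinned interval overlapped that of other immune cells. Whether other immune cells as a class expressed the proteases above the free RNA level was not tested. Within that class, cells 17 and 19 had the most member UMIs, with 7 and 5 UMIs of Cpa3 and 1 of Cma1 each among 16830 and 30346 UMIs. Whether single cells of the class expressed Cpa3 was not tested.

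The mixture of the 3 genes outside the cluster was near that of the 5 top cells. In 471 non-immune OGT KO cells without the protease-high ones, 396 member UMIs were 50.3% Cma1 (45.2 to 55.3), 35.6% Cpa3 (30.9 to 40.5) and 14.1% Tpsb2 (10.9 to 17.97). In 67 other immune OGT KO cells, 56 member UMIs were 42.9% Cma1 (29.7 to 56.8), 44.6% Cpa3 (31.3 to 58.5) and 12.5% Tpsb2 (5.18 to 24.1). Cma1 thus made up a larger share there than the 12.7% seen in cells 6 to 13. A further 31 member UMIs lay in OGT KO barcodes that the filters removed, and 0 in removed Control barcodes.

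**Figure D4:**
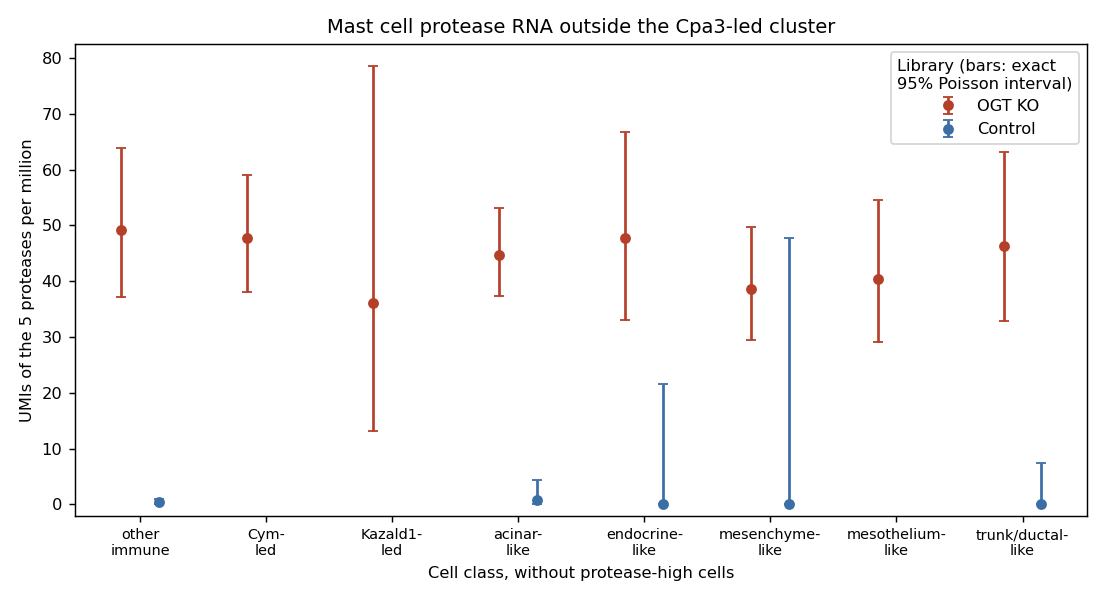
Summed level of the 5 proteases by cell class outside the Cpa3-led cluster, without protease-high cells, in CPM with exact 95% Poisson intervals (OGT KO left, Control right within a class; classes without Control cells have 1 point). OGT KO points lie between 36.1 and 49.1 CPM, and Control points lie below 1 CPM. At 0 UMIs, however, the Control upper bound was 47.8 CPM in 8 mesenchyme-like cells and 21.6 CPM in 20 endocrine-like cells. It was 7.44 CPM in 35 trunk/ductal-like Control cells, also at 0 UMIs.

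Protease-high cells numbered 11 of 553 in the OGT KO library (1.99%) and 1 of 921 in the Control library (0.109%). Of the 11, 9 lay in the Cpa3-led cluster. Near the limit, 3 OGT KO cells had between 10 and 20 member UMIs and 6 had between 5 and 9, so the class is a range of a count and not a cell type. Of those 3, cell 8 had UMIs of Cpa3 alone and was not called protease-high, as was the case for Control cell 2.

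The other 2 protease-high OGT KO cells lay among epithelial clusters. Cell 14, in an acinar-like cluster, had 9 UMIs of Cma1, 7 of Cpa3 and 17 of Tpsb2 among 5171 UMIs, with 33 UMIs of the chymotrypsinogen gene Ctrb1 and 45 of the pancreatic carboxypeptidase gene Cpa1. Its depth was far below the median of 31391 UMIs of OGT KO cells of its class. Cell 15, in the Cym-led cluster, had 2 UMIs of Cma1, 10 of Cpa3 and 11 of Tpsb2 among 22000 UMIs. It also had 2 UMIs of Hdc, 3 of Gata2 and 1 of Kit. Over the 2 cells Tpsb2 made up 28 of 56 member UMIs (36.3% to 63.7%), a larger share than in the 5 top cells.

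The genes that accompany the proteases were described by comparing the 9 protease-high immune-cluster cells with the other 71 immune-cluster cells of the OGT KO library. Because the members chose the cells, this contrast is a description, and 5 of the 9 cells supply most of its UMIs. The 9 are OGT KO cells 1 to 7, 9 and 10. Cells 8 and 11 to 13 of the Cpa3-led cluster are among the other 71, so cells with Mcpt8 lie on both sides of the contrast. Of 9009 genes with at least 10 UMIs, 11.2% were at least 2-fold higher in protease-high cells and 15.3% at least 2-fold lower, with a median log2 ratio of 0.02. The lists named below were drawn up with earlier results of these data known.

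Among other mast cell and related granule proteases, 5 of 11 genes were measured, and 4 were at least 2-fold higher and 1 lower (median log2 ratio 6.59). Tpsg1 stood at 397 CPM in protease-high cells and had 0 UMIs in the other cells, at least 156-fold higher with 3 counts as the floor. Gzmb stood at 126 CPM in protease-high cells and 0.851 CPM in the other cells from 1 UMI. Its UMIs in protease-high cells lay in 2 cells only, 14 in cell 1 and 5 in cell 3. Ctsc, which encodes the enzyme that activates granule serine proteases by removing a short leader, ran the other way, at 99.3 CPM in protease-high cells and 1211 CPM in the other cells.

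Not all genes of the granule matrix were higher. Of 12 genes for the proteoglycan core and heparin synthesis, 9 were measured, of which 4 were higher and 2 lower (median log2 ratio 0.89). The 2 lower genes, Extl3 and Xylt2, each had 1 UMI in protease-high cells, against 17 and 18 in the other cells. The intervals of both ratios included 1. Srgn, the serglycin core protein, stood at 2436 CPM in protease-high cells and 471 CPM in the other cells, a ratio of 5.17 (4.52 to 5.91). Hs3st1, a heparan sulfate sulfotransferase, stood at 245.0 CPM in protease-high cells and 11.1 CPM in the other cells. Ndst2, the sulfotransferase that mouse mast cells need for heparin, stood at 72.8 CPM in protease-high cells, from 11 UMIs, and 11.9 CPM in the other cells.

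Of 7 genes of histamine and serotonin handling, 4 were measured, with 3 higher and 1 between (median log2 ratio 4.78). Hdc stood at 1132 CPM in protease-high cells and 46.8 CPM in the other cells, a ratio of 24.2 (17.8 to 33.4). Slc18a2, the vesicle transporter that loads amines into granules, stood at 79.5 CPM in protease-high cells, from 12 UMIs, and 2.55 CPM in the other cells. Maob, a monoamine oxidase, stood at 132 CPM in protease-high cells and 0.851 CPM in the other cells.

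Of 14 surface receptors, 10 were measured, 6 of them higher and 2 lower (median log2 ratio 1.23). Kit stood at 258 CPM in protease-high cells and 8.51 CPM in the other cells, a ratio of 30.4 (14.9 to 68.2). Il1rl1, the receptor for the cytokine IL-33, stood at 192 CPM in protease-high cells and 9.36 CPM in the other cells. Cd63, a granule membrane protein that reaches the surface on release, stood at 894 CPM in protease-high cells and 398 CPM in the other cells. The 2 lower genes were Milr1, an inhibitory receptor of mast cells, at 39.7 CPM in protease-high cells and 89.3 CPM in the other cells, and the sialic acid receptor gene Cd33, with 0 UMIs in protease-high cells and 49 in the other cells.

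For the IgE receptor and its signalling, 10 of 11 genes were measured, with 3 higher, 2 lower and 5 between, and the median log2 ratio of 0.03 was close to that of all genes. Ms4a2 stood at 39.7 CPM in protease-high cells, from 6 UMIs, and 4.25 CPM in the other cells. Fcer1g, the signalling chain that many leukocytes share, stood at 920 CPM in protease-high cells and 1587 CPM in the other cells. Lyn, a kinase of the same pathway, stood at 19.9 CPM in protease-high cells, from 3 UMIs, and 183 CPM in the other cells.

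Lipid mediator genes did not move one way. All 7 genes of prostaglandin and leukotriene synthesis were measured, 2 of them higher and 3 lower (median log2 ratio -0.73). Alox5, the enzyme that starts leukotriene synthesis, stood at 152 CPM in protease-high cells and 17.01 CPM in the other cells. Hpgds, the prostaglandin D synthase of mast cells, stood at 19.9 CPM in protease-high cells, from 3 UMIs, and 67.2 CPM in the other cells. Ltc4s, the leukotriene C synthase, had 1 UMI in protease-high cells and 50 in the other cells.

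Transcription factors of the mast cell lineage also divided. Of 12 genes, 11 were measured, 4 of them higher and 4 lower (median log2 ratio 0.03). Gata2 stood at 675 CPM in protease-high cells and 21.3 CPM in the other cells, a ratio of 31.8 (20.3 to 51.4). Gata1 and Mitf were carried by 10 and 8 UMIs in protease-high cells, at 66.2 and 53.0 CPM, against 4.25 and 5.10 CPM in the other cells. Spi1, the myeloid factor PU.1, stood at 92.7 CPM in protease-high cells and 333 CPM in the other cells.

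Markers of the other cell types in the suspension were followed in the same cells. Of 12 macrophage markers, 0 were at least 2-fold higher and 10 were lower in protease-high cells (median log2 ratio -4.57), and 6 of 7 measured neutrophil markers were lower (-3.74). Of 8 measured acinar markers, 2 were higher, and the median over cells of their summed level was 5087 CPM in protease-high cells (3594 to 13779) and 4774 CPM in the other immune cells (3122 to 8323). Cpa1, a digestive carboxypeptidase of the same family as Cpa3, stood at 1119 CPM in protease-high cells and 830 CPM in the other cells. Of 7 measured basophil markers, 7 were higher (median log2 ratio 3.22), 3 of which also stand on the mast cell list. This does not describe the 5 top cells gene by gene. Of the 56 Mcpt8 UMIs in protease-high cells, 5 lay in cell 9 and 50 in cell 10, and 0 in the 5 top cells. Of the 17 Cd200r3 UMIs, 12 lay in cell 9 and 3 in cell 10. Of the 10 measured among 13 mast cell markers beyond the members, 9 were higher and 1 lower (median log2 ratio 4.12). The part of these markers in the contrasts was not tested.

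**Figure D5:**
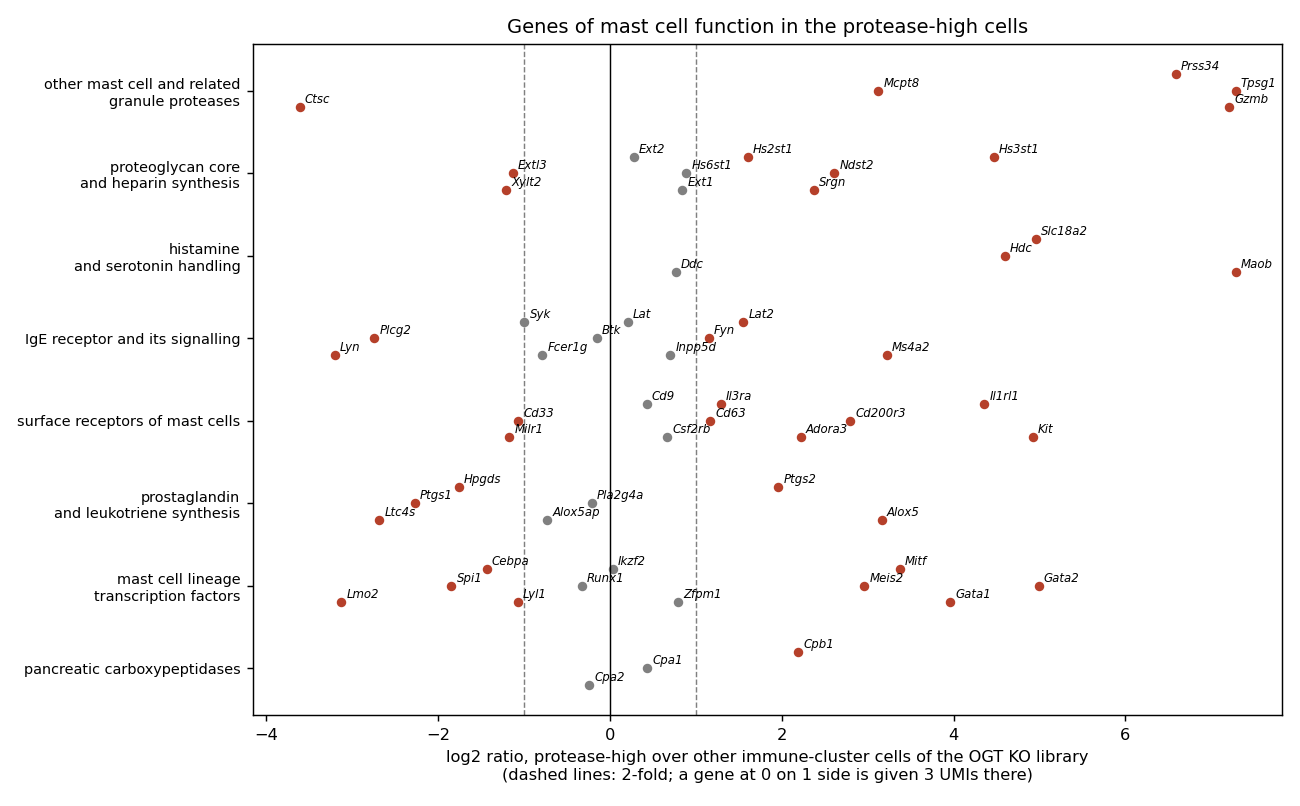
Log2 ratio of the level in 9 protease-high cells over 71 other immune-cluster cells of the OGT KO library for each measured gene of 8 lists. Red points lie outside the dashed lines at 2-fold and grey points inside; a gene at 0 in 1 set was given 3 UMIs there. Tpsg1, Maob, Gzmb and Prss34 lie farthest right and Ctsc farthest left.

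The 3 expressed members varied together across the 80 OGT KO immune-cluster cells. Pearson's r of log2(CPM + 100) was 0.82 between Cma1 and Cpa3, 0.82 between Cma1 and Tpsb2, and 0.68 between Cpa3 and Tpsb2. These cells share 1 library, most of them had no or 1 UMI of each gene, and the few high cells set the values.

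Genes most like the summed members were ranked by the same measure among the 6661 genes that had 20 UMIs or more, spread over 3 cells or more. Clec12b, a C-type lectin receptor, ranked first (r = 0.84), with 45 UMIs in the 5 top cells, 3 in the other 8 OGT KO cells of the cluster and 0 in the 2 Control cells. Smpx, known as a small muscle protein, ranked second (r = 0.82), with 53 UMIs in the 5 top cells, between 4 and 18 in each, 2 in the other 8 and 0 in the 2 Control cells. Tpsg1 came next (r = 0.82). The 3 leading genes were thus found in each of the 5 top cells and in at most 4 further immune-cluster cells.

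Protease-high immune-cluster cells held 79.7% of all Clec12b UMIs of the OGT KO library, 81.9% of those of Smpx and 89.6% of those of Tpsg1. After them came Gata2 and the immune checkpoint gene Cd276 (both r = 0.79), Hdc (0.78), Maob (0.77) and the cytokine gene Il4 (0.72). Il4 had 23 UMIs in the 5 top cells, 11 in the other 8 and 4 in the 2 Control cells, and 0 in non-immune OGT KO cells. It was found in 5 of the 5 top cells and 6 of the other 8. Over all immune clusters of the Control library Il4 had 13 UMIs, so most of its Control UMIs lay outside the Cpa3-led cluster.

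Edem3, Il1rl1, Hs3st1, Spns1, Slc22a3 and Kit followed with r between 0.71 and 0.65. Slc22a3 encodes a transporter that carries histamine among other amines, and Spns1 a transporter of the lysosome. Rplp1, a ribosomal protein gene found in all 80 cells (r = 0.65), stood at 5859 CPM in protease-high cells and 2846 CPM in the other cells, and protease-high cells held 3.20% of its UMIs. It differs in this from Clec12b, Smpx and Tpsg1. The share was also low for Socs2 (6.49%), Cd276 (11.05%), Spns1 (12.47%), Papss2 (15.74%) and Edem3 (20.65%). Of 172 Cd276 UMIs in the OGT KO library, 149 lay in non-immune cells. Cst7, Srgn, Socs2, Prss34 and Papss2, which encodes a synthase of the sulfate donor used in heparin synthesis, closed the leading 20 with r between 0.63 and 0.59. Mcpt8 ranked 385th (r = 0.22) and Ctsc 6645th (r = -0.45).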

How the data were processed

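The deposited tables hold whole-number UMI counts per gene and cell, with a separate table for OGT KO and for Control. Cell Ranger 2.0.0, Seurat 2.0, DESeq2 1.14.1 and mm10 were used, per the submitters' processing notes; how barcodes became cells is not stated there. Symbols and positions came from GENCODE M21 (27645 of 27998 identifiers matched; the other 353 held 0.0315% of OGT KO and 0.0274% of Control UMIs and stayed in the totals). The members and lists were chosen with earlier results of these data known.

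Barcodes under 500 genes or above 10% mitochondrial UMIs were dropped, and Scrublet doublets (8 OGT KO, 4 Control) were removed. Both libraries were clustered together with scanpy 1.11.5 and leidenalg 0.10.2 (2000 variable genes, 30 components, 15 neighbours, resolution 1). Immune clusters had Ptprc at 0.25 or more of its highest cluster level. A cluster took a marker list's name when that list scored highest with at least 3 markers detected and at least 1 among its 10 leading genes, and no other list had more there. The Cpa3-led cluster, whose highest list was basophil, had more mast cell genes among its 10 leading genes, with the members counted. The liver list gave no names. Other clusters go by their leading gene, and this rule was settled after the data were seen. The named genes were the members, the 20 genes most correlated with their sum, and up to 4 per list.

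Counts were summed over cells and scaled to CPM, with exact intervals at 95% and 3 counts in place of 0 in lower bounds. With 1 library per genotype there was no test. The interval code was tested on simulated data. TMM factors (edgeR 4.0.16) and median-of-ratios size factors (DESeq2 1.42.0) were alternatives on the summed counts. Thinning to 5000 UMIs left out 1 OGT KO and 81 Control cells.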

Additional observations from a re-analysis of the deposited data

How the results depend on the processing

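No paired analysis was possible because the 2 sequencing runs of a genotype are technical, were pooled in 1 table and cannot be separated by cell. The summed ratio over all kept cells lay between 39.1 and 49.5 under the other filters, doublets kept, TMM or median-of-ratios scaling (factors 0.777 and 0.781 on every ratio) and without the top OGT KO cell, and was 12.5 without the 5 top cells. In immune cells the ratio was 143 over all barcodes with a Ptprc UMI, 143 over kept cells with one, 204 without the top cell and 26.3 without the 5 top cells, and between 260 and 273 otherwise. The count of protease-high OGT KO cells was 7 at 30 UMIs and between 11 and 16 otherwise. Outside protease-high cells the ratio was 19.3. It became 105.0 when the rest of the Cpa3-led cluster was left out too and 107.5 with no minimum number of genes, since both remove the Control cell with 24 Cpa3 UMIs. Of the 20 genes most like the members, 13 were shared when all kept OGT KO cells were used and between 15 and 20 otherwise. Leaving out the 5 cells, the rest of the cluster, or the gene minimum was chosen after seeing the data. Each direction held under these alternatives. In the Control library, 2 cells limit what can be said of the cluster.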

Other observations

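In the Cpa3-led cluster, Alox5ap, which helps start leukotriene synthesis, had between 0 and 3 UMIs in OGT KO cells 1 to 7, between 19 and 30 UMIs in OGT KO cells 8 to 13, and 29 and 27 UMIs in the 2 Control cells. Csf2rb, a shared receptor chain for IL-3 and related cytokines, had between 0 and 3 UMIs in cells 1 to 7, between 6 and 11 in cells 8 to 13, and 2 and 3 UMIs in the Control cells. For both genes the counts of cells 1 to 7 were thus below those of cells 8 to 13, which is a description made after the values were seen. How many of all genes are so separated was not computed, and nothing is read from the separation. By Csf2rb the Control cells fell in the range of cells 1 to 7 as well, unlike by Alox5ap. By Tpsg1, at 0 UMIs, cells 6 and 7 stood with cells 8 to 13 instead. Mpo, the myeloperoxidase of granulocyte precursors, had 0 UMIs in the 5 OGT KO cells with at least 200 member UMIs, 17 in the other 8, of which 14 lay in cell 12, and 35 and 52 UMIs in the 2 Control cells. Srgn stood at 2533 CPM in the 5 cells, 2594 CPM in the other 8 and 3580 CPM in the 2 Control cells.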
